A study of Rattus norvegicus with 6 samples.

Results

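Immediate early transcription factors of 3 families were followed in rat beta cells at 2 ages: the EGR zinc fingers (Egr1, Egr2, Egr3), the AP-1 proteins (Fos, Fosb, Jun, Junb) and Krüppel-like factors (Klf2, Klf4, Klf6). A probe set belonged to the group when the array's annotation gave it exactly 1 gene symbol and that symbol was one of these 10. This held for 10 probe sets of 9 genes, among 14506 genes named on the array, and Fosb is not analysed here. All animals were male Wistar rats without a transgene or treatment in the labels. The immature group held 3 preparations (day 20 replicates 1 to 3) from suckling animals at postnatal day 20. The mature group held 3 preparations (adult replicates 1 to 3) from young adults of about 2 months, weighing 250 to 280 g. Beta cells had been enriched in a sorter by their scatter and autofluorescence, and the series calls them primary cultured, with no culture time given. The number of animals behind a preparation is not in the labels.

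Immediate early genes are transcribed as soon as a cell is stimulated, from factors that are already present: serum response factor with its Elk partners at the CArG box, and CREB at the cyclic AMP response element, both switched on by kinases such as ERK and protein kinase A. Their products are themselves transcription factors that start a later wave of genes, and dual-specificity phosphatases and RNA-destabilising proteins shut the response off. In beta cells glucose, calcium entry and incretins are known to induce them, and in many tissues so are dissociation and handling.

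The values are log2 signals after RMA, so that a difference of 1 is a 2-fold change. Amounts of RNA are compared only between arrays for the same probe set. Where genes are ranked by brightness, this describes their array signal and not their amount of RNA. Array medians lay between 6.35 and 6.39 and first quartiles between 4.91 and 4.94, and with 3 arrays per age their number limits the precision. Of the beta cell markers, 6 of 8 measured were called higher in adult, where 11.8% of all genes were. The mean of this list was 11.64 to 12.13 over the adult and 10.31 to 10.92 over the day 20 arrays. Acinar markers, which sorted beta cells should lack, had a list mean of 13.49 to 13.73 over the 6 arrays, and the delta cell hormone Sst had a signal of 11.58 ± 0.08 in adult and 12.47 ± 0.24 at day 20 (SD, n = 3). The source of these signals was not tested. In bulk RNA such as this, fewer cells of a type and less RNA per cell cannot be told apart.

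Egr2 and Klf2 were lower in adult than in day 20 preparations by nearly 4-fold each, Egr3 was slightly lower, and the other 6 members did not pass the test. Of the 9 genes, 3 passed, or 33.3%, against 22.7% of all genes: 0 were called higher and 3 lower in adult (limma, Benjamini-Hochberg adjusted p under 0.05 over all genes; 0 higher and 4 lower at an unadjusted p under 0.05). Over all 14506 genes, 11.8% were called higher and 10.9% lower at the adjusted threshold. The share of all genes at an unadjusted p under 0.05 was not counted in this fit. Counts at that level, here and for the lists below, therefore have no background beside them. Called and at least 2-fold lower were 2 members, against 1.34% of all genes. The groups did not overlap for 4 members, or 44.4%, near the 39.6% of all genes. Of these 3 were lower in adult, where 18.7% of all genes were, and 1 was higher, where 20.9% were. The median log2 difference of the members was -0.089, against 0.012 over all genes.

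**Figure D1:**
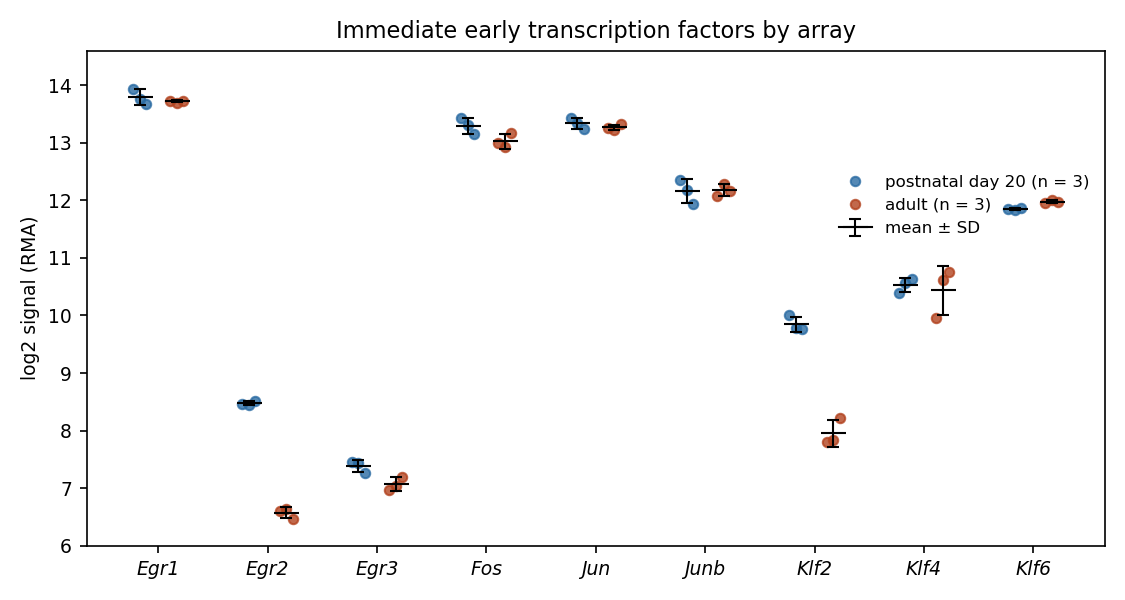
Log2 signal of the 9 measured members on each array, with day 20 in blue and adult in red; points are single arrays, and bars show the mean ± SD of 3. Egr2 and Klf2 stand apart by age, while the points of Fos, Jun, Junb, Klf4 and Egr1 overlap between ages.

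The promoters of Egr1 and Egr2 are shown because the pair carries the same regulatory letters and the genes gave different measurements. Of the 10 listed genes 6 have a promoter in the RefSeq table used (build GRCr8), which spans 250 bases before to 50 after the table's gene start, and a gene may have other starts. Egr1 lies at chr18:26736828-26737127 on the plus strand and Egr2 at chr20:21054392-21054691 on the minus strand. Capitals mark CArG boxes and the core of the cyclic AMP response element, TGACG, which reads CGTCA where it lies on the other strand.
Egr1: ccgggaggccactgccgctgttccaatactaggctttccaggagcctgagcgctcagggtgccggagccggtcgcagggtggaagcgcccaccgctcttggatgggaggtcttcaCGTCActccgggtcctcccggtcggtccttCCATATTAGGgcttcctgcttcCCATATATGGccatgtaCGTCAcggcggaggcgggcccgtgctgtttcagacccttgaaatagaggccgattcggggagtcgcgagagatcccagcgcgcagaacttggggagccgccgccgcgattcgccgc
Egr2: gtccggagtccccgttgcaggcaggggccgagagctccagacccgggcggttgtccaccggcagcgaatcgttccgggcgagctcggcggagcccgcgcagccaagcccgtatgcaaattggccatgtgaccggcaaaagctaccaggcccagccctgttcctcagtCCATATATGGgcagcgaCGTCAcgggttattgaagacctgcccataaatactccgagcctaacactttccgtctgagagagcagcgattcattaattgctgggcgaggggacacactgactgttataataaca
Both windows hold the CArG box CCATATATGG from position -83 to -74, counted back from the start, and both hold CGTCA from -66 to -62. Egr1 has 1 more CArG box, CCATATTAGG, from -105 to -96 and 1 more CGTCA from -135 to -131.

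These letters are common to few promoters in the case of the CArG box and to many in the case of the short core. A CArG box (CC, 6 bases of A or T, GG, a pattern that reads alike on both strands) is in 1.64% of 27457 promoter windows of the same length, and TGACG on either strand in 22.0%. The other CArG box among the 6 members' windows is that of Klf6 at -201 to -192, and Junb has a TGACG at -155 to -151. The full element TGACGTCA, which contains that core and is in 1.91% of windows, is in 0 of the 6. So are the pattern TGANTCA, which covers the AP-1 site with any middle base (7.33%), and the EGR site GCGNGGGCG (5.29%). Each was searched on both strands. A match is a description of these letters and not a bound site.

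Egr1, the archetypal zinc finger of the family and a factor known to respond to glucose in beta cells, had log2 signals of 13.73, 13.70 and 13.73 on adult replicates 1 to 3 and of 13.94, 13.77 and 13.67 on day 20 replicates 1 to 3. The adult values all lay inside the range of the day 20 values. The log2 difference, adult minus day 20, was -0.074, with a 95% interval of -0.29 to 0.14 (adjusted p = 0.65, limma). Its signal was brighter than that of 99.8% of genes, and array signals in the brightest range are known to respond less than in proportion to RNA.

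Egr2, which is known for its roles in hindbrain and Schwann cell development and in lymphocytes, had log2 signals of 6.61, 6.64 and 6.46 in adult and 8.46, 8.45 and 8.51 at day 20. The 3 values within each age differed by far less than the gap between ages. Its mean was 6.57 ± 0.10 in adult and 8.47 ± 0.04 at day 20 (SD, n = 3), a log2 difference of -1.90 ± 0.088 (SE), or 3.74-fold higher at day 20 (95% interval 3.26 to 4.30, adjusted p = 2.6e-05, limma). It was the 38th largest fall among 14506 genes. It passed in all 6 fits that dropped a single array, with log2 differences between -1.94 and -1.85 and adjusted p-values up to 2.3e-04.

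Egr3, which acts with Egr1 in lymphocytes and in muscle spindles, had log2 signals of 6.97, 7.03 and 7.20 in adult and 7.46, 7.44 and 7.26 at day 20. The groups did not overlap, but the highest adult array and the lowest day 20 array were close. The log2 difference was -0.32 (95% interval -0.55 to -0.093, adjusted p = 0.049, limma), or 1.25-fold higher at day 20. Of the 6 fits that dropped a single array it passed in 2, those without replicate 3 of either age, and dropping replicate 1 or 2 of either age took it to an adjusted p of 0.13 or 0.14. It also missed the threshold when the arrays were rescaled (adjusted p = 0.056 and 0.065).

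Ratios within an array take out any difference in scale between arrays. The log2 ratio of Egr2 to Egr3 was -0.50 ± 0.22 in adult and 1.08 ± 0.14 at day 20 (SD, n = 3) without overlap, where only its change with age has a meaning. This change was -1.58, against -1.83 for the ratio of Egr2 to the much brighter Egr1. The ratios were compared only by a two-sided exact permutation test, which with 3 arrays against 3 cannot give a p below 0.10. They are therefore given without a p-value.

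The AP-1 members showed no called difference with age. AP-1 is a dimer of a Fos and a Jun protein. Fos, the classical partner induced by calcium and cyclic AMP, had log2 signals of 12.99, 12.92 and 13.17 in adult and 13.43, 13.31 and 13.15 at day 20. The ranges met only at day 20 replicate 3, the lowest of its age. The log2 difference of Fos was -0.27 (95% interval -0.51 to -0.024, unadjusted p = 0.035, adjusted p = 0.11, limma), and Fos passed after a second quantile normalization (adjusted p = 0.034).

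Jun, which can pair with itself or with Fos, had log2 signals of 13.25, 13.23 and 13.32 in adult and 13.43, 13.34 and 13.24 at day 20. The values of the ages were interleaved, with a log2 difference of -0.072 (95% interval -0.27 to 0.13, adjusted p = 0.64, limma). Junb, a Jun relative that often restrains Jun, had 12.08, 12.28 and 12.17 in adult and 12.36, 12.18 and 11.94 at day 20. Here day 20 held both the highest and the lowest array, and the log2 difference was 0.017 (95% interval -0.25 to 0.29, adjusted p = 0.95, limma), with a sign that turned without adult replicate 2 or day 20 replicate 3.

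The 3 Krüppel-like factors differed from each other in their change with age. Klf2, a factor best known from endothelial cells, where blood flow induces it, and from resting T cells, had log2 signals of 7.80, 7.83 and 8.22 in adult and 9.996, 9.79 and 9.76 at day 20. The highest adult array, replicate 3, was still well below the lowest day 20 array. The mean was 7.95 ± 0.24 in adult and 9.85 ± 0.13 at day 20 (SD, n = 3), a log2 difference of -1.90 ± 0.13 (SE), or 3.73-fold higher at day 20 (95% interval 3.04 to 4.57, adjusted p = 6.3e-05, limma). It was the 40th largest fall among 14506 genes, and it passed in all 6 fits that dropped a single array (adjusted p up to 7.0e-04).

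Klf4, one of the factors used to reprogram cells to pluripotency and a gene of differentiating epithelia, had log2 signals of 9.95, 10.61 and 10.75 in adult and 10.39, 10.57 and 10.63 at day 20. Adult replicate 1 was the lowest and adult replicate 3 the highest of the 6 arrays, and adult replicate 2 lay among those of day 20. The log2 difference was -0.089 (95% interval -0.52 to 0.34, adjusted p = 0.80, limma), and 0.15 without adult replicate 1. A further probe set of Klf4 gave a log2 difference of -0.22 (adjusted p = 0.39). Within an age Klf4 had the widest spread of the members, with an SD of 0.315, against a median SD of 0.128 over all genes.

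Klf6, a broadly expressed factor that is induced by injury, had log2 signals of 11.95, 12.005 and 11.98 in adult and 11.85, 11.84 and 11.86 at day 20. The groups did not overlap, since its spread within an age, an SD of 0.0223, was the smallest of the members. The log2 difference was 0.13 (95% interval -0.052 to 0.31) and did not pass in limma, which draws such small spreads towards those of other genes (adjusted p = 0.31). On the same array, the log2 ratio of Klf2 to Klf6 was lower in adult by -2.03 and that of Klf2 to Klf4 by -1.81. These ratios, too, are given without a p-value.

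**Figure D2:**
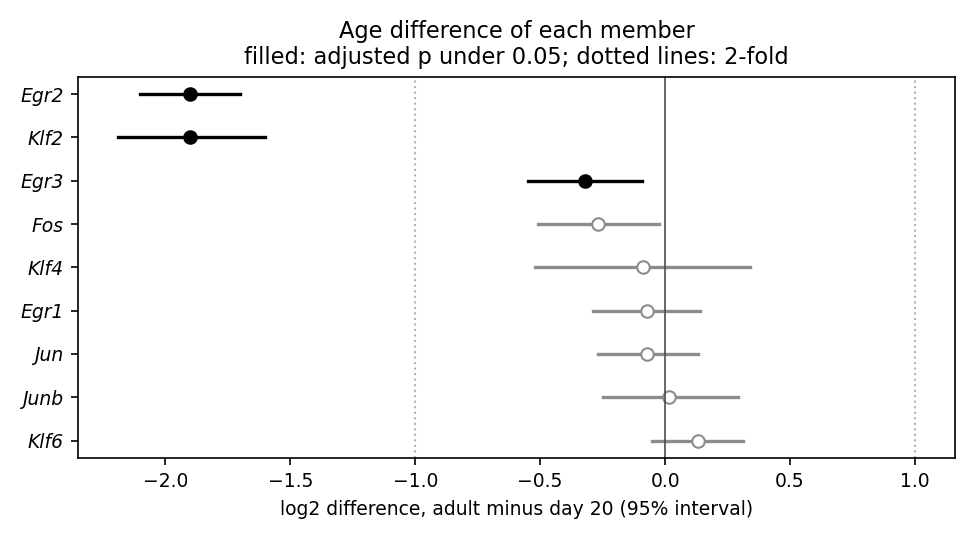
Log2 difference of each member, adult minus day 20, with its 95% interval from limma; filled symbols passed an adjusted p under 0.05, and dotted lines mark a 2-fold change. Egr2 and Klf2 lie beyond the 2-fold line, and the intervals of the other 7 members lie inside it.

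The 7 members other than Egr2 and Klf2 had log2 differences between -0.32 and 0.13. Their 95% intervals excluded a 2-fold change of the array signal in either direction. For 5 of them, Egr1, Fos, Jun, Junb and Klf6, the signal was brighter than that of 98% of genes. In the brightest range signals respond less than in proportion to RNA, so these intervals limit the change in signal and not in RNA. The mean of all 9 members was 10.69 ± 0.09 in adult and 11.19 ± 0.07 at day 20 (SD, n = 3), and most of this difference of -0.50 came from Egr2 and Klf2, since the mean of the other 7 differed by -0.097. The members had a median SD within an age of 0.115, close to the 0.128 of all genes.

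**Figure D3:**
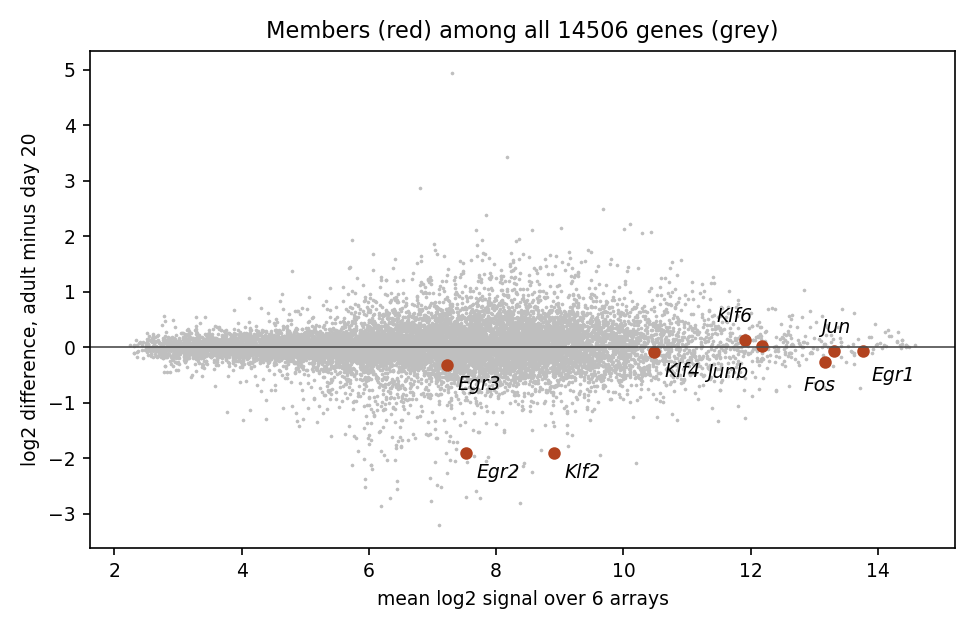
Log2 difference, adult minus day 20, against the mean log2 signal over the 6 arrays, for 14506 genes in grey and the 9 members in red. Egr2 and Klf2 lie at the lower edge of the cloud, at middle signals, and Egr1, Fos, Jun, Junb and Klf6 lie at the bright end.

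Other genes of the immediate early response were taken from 6 lists with 114 measured genes, and 13 of these rose and 18 fell from day 20 to adult (limma, adjusted p under 0.05; 22 and 24 at an unadjusted p under 0.05). As a share of the lists that is 11.4% and 15.8%, against 11.8% and 10.9% of all genes, and the median log2 difference was 0.013, against 0.012. The list of other immediate early regulators held 9 of the falls.

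Among these 31 other immediate early regulators, 9 were lower (29%, against 10.9% of all genes) and 2 higher (6.45%, against 11.8%) in adult. The median log2 difference of the list was -0.036. Id1, an inhibitor of basic helix-loop-helix factors, fell most, from 7.42 ± 0.16 at day 20 to 6.27 ± 0.08 in adult (SD, n = 3, 2.22-fold, adjusted p = 2.1e-04, limma). Of the NR4A orphan nuclear receptors, Nr4a1 was 1.73-fold higher at day 20 (11.20 ± 0.28 against 10.41 ± 0.02, adjusted p = 0.0040) and Nr4a3 1.53-fold (adjusted p = 0.0091). Ier2, a small nuclear immediate early protein and one of the 3 brightest of the list, was 1.47-fold higher at day 20 (adjusted p = 0.0089). The third NR4A receptor, Nr4a2, did not pass, with a log2 difference of 0.10 (adjusted p = 0.66). Id1, Nr4a1, Nr4a3 and Ier2 passed in all 6 fits that dropped 1 array. With the mean of 12 pan-endocrine genes as a covariate Ier2 did not (log2 difference -0.37, adjusted p = 0.29, limma). The pan-endocrine mean itself did not overlap between ages, at 10.55 to 11.24 over the adult and 9.39 to 10.4 over the day 20 arrays. Fits with this covariate, here and below, can therefore not separate it from age.

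The remaining falls of that list were smaller, with log2 differences between -0.49 and -0.36. They were those of Sik1, a kinase induced by cyclic AMP, the clock gene Per1, the polo-like kinase Plk3, Ier3 and the cyclooxygenase Ptgs2. None of these passed in limma with the pan-endocrine covariate (adjusted p = 0.057 to 0.72). The calls of Plk3, Ier3 and Ptgs2 did not hold in every fit with 1 array left out (adjusted p up to 0.063, 0.074 and 0.14), Ptgs2 passing in 1 of 6. Id2, a relative of Id1, was 1.46-fold higher in adult (adjusted p = 0.0072) and Csrnp1 1.34-fold (adjusted p = 0.012). Csrnp1 missed the threshold without day 20 replicate 2 (adjusted p = 0.050), and with the pan-endocrine covariate neither passed (adjusted p = 0.19 for Id2 and 0.23 for Csrnp1). The other bright genes, Ccn1, a matricellular protein, and Hes1, a Notch target, did not pass, with log2 differences of 0.018 and -0.036.

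Among 20 feedback inhibitors, 4 were lower (20%, against 10.9% of all genes) and 2 higher (10%, against 11.8%) in adult. The median log2 difference of the list was 0.035. Dusp5, a nuclear phosphatase of ERK, was 1.98-fold higher at day 20 (10.10 ± 0.03 against 9.11 ± 0.15, SD, n = 3, adjusted p = 3.5e-04, limma) in all 6 fits with 1 array left out. Dusp2, a further nuclear phosphatase, and Spry4, an inhibitor of growth factor signalling, had log2 differences of -0.43 and -0.45. That of Spry4 missed the threshold when adult replicate 2, adult replicate 3 or day 20 replicate 1 was dropped (adjusted p up to 0.060). Dusp10, a phosphatase of JNK and p38, was 1.52-fold higher in adult, but missed the threshold when day 20 replicate 1, day 20 replicate 2 or adult replicate 1 was dropped (adjusted p up to 0.061). Zfp36l1, which destabilises RNA, was 1.22-fold higher in adult (adjusted p = 0.042) and passed in 1 of the 6 fits that dropped 1 array (adjusted p up to 0.14). With the pan-endocrine covariate Dusp5 passed in limma (adjusted p = 0.012). Dusp2, Spry4, Dusp10 and Zfp36l1 did not (adjusted p = 0.085, 0.064, 0.67 and 0.19). The 3 brightest, Errfi1, Zfp36 and Dusp1, did not pass in the main fit, with log2 differences of 0.15, 0.014 and 0.037. Dropping 1 array gave 2 to 4 falls and 0 or 1 rises in this list, with 0 rises without day 20 replicate 1 or 2.

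The 12 AP-1 partners held 1 called gene, a rise (8.33%, against 11.8% of all genes). This was the Fos relative Fosl1, which rose 1.49-fold from 7.17 ± 0.06 at day 20 to 7.75 ± 0.25 (SD, n = 3, adjusted p = 0.013, limma). With the pan-endocrine covariate it did not pass (adjusted p = 0.24). No partner was lower, with 0 at an unadjusted p under 0.05 in limma and 2 higher. The brightest partners, Atf3 and Atf4 of the stress response and Jund, had log2 differences of -0.075, -0.052 and -0.33 and did not pass.

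The 12 other Krüppel-like factors held 1 rise, of Klf9, a target of glucocorticoids (log2 difference 0.31, adjusted p = 0.031), and 1 fall, of Klf1, the erythroid factor (-0.34, adjusted p = 0.048, limma). Each is 8.33% of the list, against 11.8% of all genes higher and 10.9% lower. Klf1 passed in 0 and Klf9 in 1 of the 6 fits with 1 array left out (adjusted p up to 0.14 and 0.10). Klf10 and Klf3, the next brightest, had log2 differences of -0.31 and -0.29 and did not pass.

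Among 26 upstream kinases and activators, 4 were lower (15.4%, against 10.9% of all genes) and 2 higher (7.69%, against 11.8%) in adult. All called differences were under 1.5-fold. Mapk9, which encodes the kinase JNK2, was 1.41-fold higher in adult (adjusted p = 0.0029) and Rps6ka2, a ribosomal S6 kinase downstream of ERK, 1.39-fold higher at day 20 (adjusted p = 0.0046, limma), both in all 6 fits with 1 array left out but neither with the pan-endocrine covariate (adjusted p = 0.070 and 0.12). Calls of Atf1, Elk3, Elk4 and Mef2a held in 1 or 2 of those fits (adjusted p up to 0.14). Srf, which encodes serum response factor, did not pass (log2 difference -0.094, 95% interval -0.33 to 0.14), and nor did Mapk14, which encodes p38 alpha (log2 difference 0.034).

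In the list of heat shock and dissociation response genes 5 of 13 were higher in adult and 0 lower (limma, 7 and 0 at an unadjusted p under 0.05). That is 38.5% higher, against 11.8% of all genes, and 0% lower, against 10.9%. The chaperone Hsph1 rose 2.37-fold from 9.96 ± 0.06 at day 20 to 11.20 ± 0.46 (SD, n = 3, adjusted p = 0.0027), and the cochaperones Dnajb4, Dnajb1 and Dnaja1 2.23-fold, 1.83-fold and 1.63-fold. Dnajb1 missed the threshold in 3 of the 6 fits that dropped 1 array (adjusted p up to 0.073) and in the fit with the pan-endocrine covariate (adjusted p = 0.058), while Hsph1, Dnajb4 and Dnaja1 passed in all of these fits. Leaving out 1 array gave 3 to 7 rises, the fewest without day 20 replicate 1 or 2. The brightest members, Hspa8 and Hspa5, did not pass (log2 differences 0.18 and 0.051). The mean of the list was 11.27, 11.97 and 11.59 on adult replicates 1 to 3 and 11.09, 11.14 and 11.14 at day 20. The adult arrays differed more among themselves in this mean than the day 20 arrays did.

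**Figure D4:**
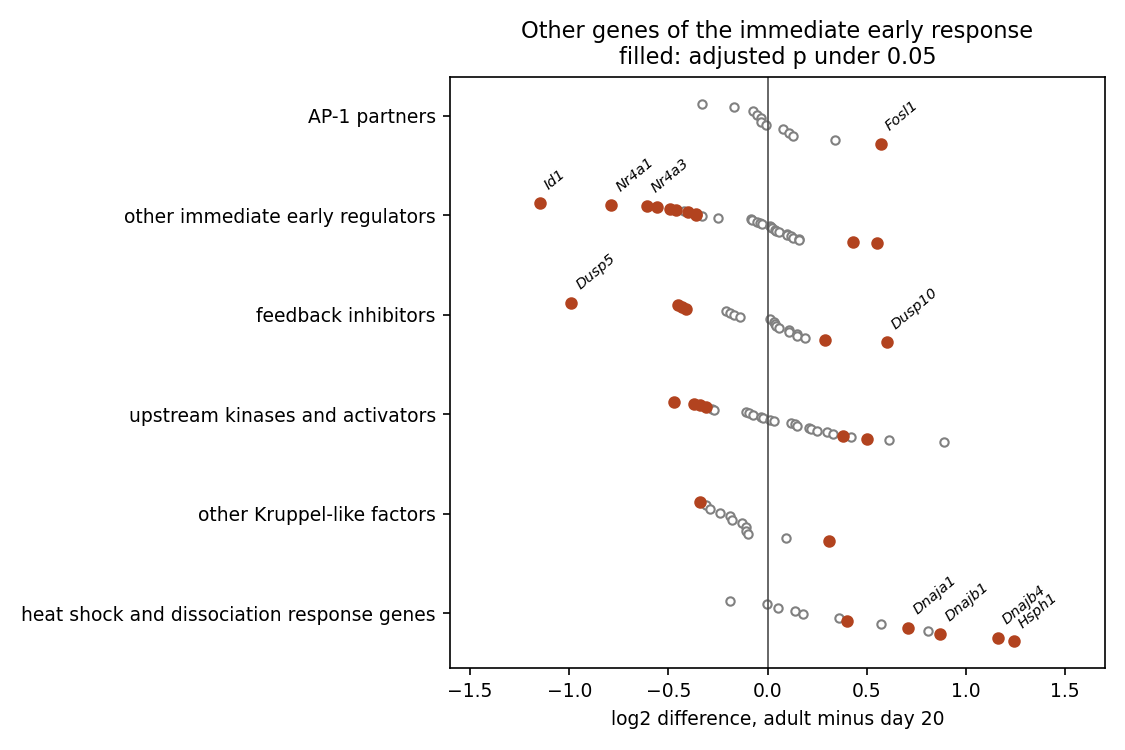
Log2 difference, adult minus day 20, of each measured gene in the 6 lists; filled red points passed an adjusted p under 0.05 in limma, and those with the largest differences are named. Falls among the other immediate early regulators reach -1.15 for Id1, and rises among the heat shock genes reach 1.24 for Hsph1.

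Markers of other cell types moved with age beside Egr2 and Klf2. All 12 measured endothelial markers were called lower in adult, where 10.9% of all genes were, with a median log2 difference of -1.40. The list's mean was 5.64, 5.70 and 5.65 on adult replicates 1 to 3 and 7.15, 6.54 and 7.04 on day 20 replicates 1 to 3. The day 20 arrays were all above the adult arrays in this mean, and replicate 2 was the lowest of them. On that array Egr2 was 8.45 and Klf2 9.79. Leaving out 1 array gave 9 to 12 called endothelial markers, and none of the 12 had means below the first quartile at both ages.

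Of the fibroblast and stellate cell markers 6 of 11 were called lower in adult, where 10.9% of all genes were. Their list means were 6.34 to 6.54 in adult and 7.14 to 7.44 at day 20. Leukocyte and macrophage markers held 2 called falls of 14, Cd48 and Cd68, with list means of 5.61 to 5.63 and 5.83 to 6.02, and Ptprc, the pan-leukocyte marker, lay below the first quartile at both ages. Since Egr2 acts in Schwann cells, 9 markers of these cells were added after its values were seen. Of these 1 was lower in adult, Pmp22, and the median log2 difference was 0.036. Among markers of other islet cells, 5 of 6 for delta, PP and epsilon cells were lower in adult, with list means of 7.49 to 7.68 and 8.55 to 9.14. Of 4 alpha cell markers 1 was lower and 0 higher, and of 6 duct markers 2 were lower and 1 higher. The part of these cells in the falls of Egr2 and Klf2 was not tested.

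An added fit, chosen with the data in view, carried the mean of the endothelial markers beside age. The log2 differences in it were -1.82 for Egr2 (unadjusted p = 0.00056) and -1.66 for Klf2 (unadjusted p = 0.0083). Neither passed adjustment (adjusted p = 0.40 and 0.47, limma), and nor did any of the 14506 genes (1144 at an unadjusted p under 0.05). The endothelial mean itself did not overlap between ages, so neither the log2 differences nor the p-values of this fit can separate it from age. In a fit that carried the mean of 12 pan-endocrine genes, both passed, with log2 differences of -1.95 (adjusted p = 4.9e-04) and -1.82 (0.0023).

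**Figure D5:**
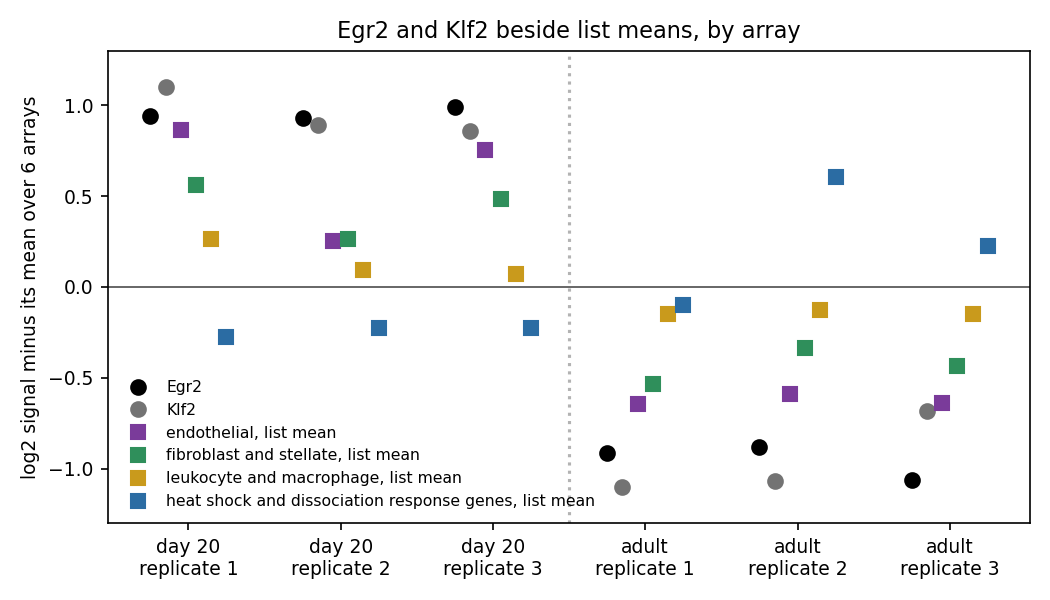
Log2 signals of Egr2 and Klf2 (circles) and the mean log2 signals of 4 gene lists (squares) on each array, each minus its own mean over the 6 arrays. Egr2, Klf2 and the endothelial list mean are higher on all 3 day 20 arrays than on any adult array.

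The genes with the most similar profiles were sought among the 7090 genes whose mean log2 signal reached 7, by the root mean square difference of the centred profiles over the 6 arrays. Profiles were centred but not scaled, so a small distance requires a difference of similar size between the ages. A shared regulation or cell source of the genes found was not tested. For Egr2 and Klf2 this search was added after their values were seen. Nearest to Egr2 were the secreted protease Adamts1 (0.070), the securin Pttg1 (0.10) and the magnesium transporter Slc41a3 (0.14), followed by Lmcd1 (0.14) and the mitotic kinase Plk1 (0.15), with log2 differences of -1.98 to -1.83. Nearest to Klf2 were the telomerase RNA Terc (0.072), the histone gene Hist1h2af (0.099), the cyclin Ccnb2 (0.20), Slc41a3 (0.21) and the endothelial gene Pecam1 (0.23).

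The search by rule was made for Egr1, Fos, Junb and Klf4, which were not called. The nearest to Egr1 were Fto, Atp6v0e2, Ntpcr, Clasrp and Rnase1 (0.029 to 0.031), with log2 differences of -0.11 to -0.038. Those to Fos were Atox1, Arrdc2, Cdk6, Sf3a2 and Sec31a (0.042 to 0.048), with log2 differences of -0.28 to -0.22. Thap11, Tmem150a, Slpi, Batf3 and Kif13a were nearest to Junb (0.031 to 0.049), with log2 differences of -0.021 to 0.056. P2rx4, Rbfa, Ruvbl1, Pctp and Bag1 were nearest to Klf4 (0.11 to 0.13), with log2 differences of -0.15 to 0.021.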

How the data were processed

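The authors deposited 1 log2 signal per probe set and array, made with RMA according to the submitters' processing notes. RMA subtracts background, equalises the arrays' distributions and summarises probes. The RMA software and its version: not given in the sources used here. The log2 scale was read from the range of values, 1.73 to 14.7.

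Symbols came from the platform annotation, updated by Entrez identifier or accession, and a gene was represented by its brightest probe set. Adult was compared with day 20 by lmFit and eBayes of limma 3.58.1 (R 4.3.3) in two-sided tests, and p-values were adjusted by Benjamini-Hochberg across 14506 genes, after the fit had been tested on simulated data. The titles number the arrays as biological replicates.

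Members, lists and tests were chosen with earlier results of these data known. By rule the text names the members, in each list up to 3 largest rises and falls past the threshold and the 3 brightest genes, and the 5 nearest profiles of Egr1, Fos, Junb and Klf4. Sik1, Per1, Plk3, Ier3, Ptgs2, Elk4 and the markers named singly fall outside it and were chosen after their values were seen. So were the Schwann list, the fit with the endothelial mean and the profiles of Egr2 and Klf2. Of 136 listed symbols, some of them synonyms, 114 were measured. Python 3.11.15 was used with numpy 2.4.6, pandas 2.3.3, scipy 1.17.1 and matplotlib 3.10.9.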

Additional observations from a re-analysis of the deposited data

How the results depend on the processing

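Over 16 alternatives, Egr2 and Klf2 were lower in adult by -1.95 to -1.82 and -2.03 to -1.66 on the log2 scale and passed in 15 each, the exception being the endothelial covariate, which was chosen after the data were seen. Egr3 kept its sign and passed in 5; it did not pass after a second quantile normalization (adjusted p = 0.056), median centring (0.065), eBayes with trend and robust variances (0.055), array weights (0.056) or with the pan-endocrine covariate (0.65), the endothelial covariate (0.83) or 4 of the 6 arrays left out. Egr1, Jun, Junb, Klf4 and Klf6 passed in none, and signs turned for Egr1, Junb and Klf4 in 1, 2 and 3 (of 17 for Klf4). Fos passed in 1, the second quantile normalization (adjusted p = 0.034). Removing the dimmest 33.3% of genes, or using the mean or each of a gene's probe sets, changed no call of a member.

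The labels state no pairing of samples by replicate number. Deviations from the age mean of same-numbered arrays correlated at -0.19, 0.19 and -0.21 over genes, and not every array correlated best with its own number. With 3 arrays per age such deviations depend on each other, so these correlations cannot settle whether samples were paired. With the replicate number as a block 2609 genes passed, against 3294, and 2 members, with Egr3 at an adjusted p of 0.11.

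When the pan-endocrine mean was a covariate, 773 genes passed, with 3 list genes higher and 5 lower. That mean did not overlap between ages. In that fit the mean over the members differed by -0.398. With the endothelial mean 0 genes, 0 members and 0 list genes in either direction passed (limma, with 1144, 2, 3 and 2 at an unadjusted p under 0.05). The endothelial mean was 5.64 to 5.70 over the adult and 6.54 to 7.15 over the day 20 arrays, so this fit cannot separate it from age. The cause of the lost calls was not tested. With 1 array left out, 2159 to 2925 genes passed, with 6 to 14 list genes higher and 9 to 17 lower, against 13 and 18, the fewest genes (2159) and list genes higher (6) without day 20 replicate 2 and the fewest list genes lower (9) without day 20 replicate 1. The files hold no detection calls, so signal over background was not analysed here.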
